A study of Drosophila melanogaster with 3 samples.

Results

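The heat shock and chaperone genes are described here by the binding of Atf3, a bZIP factor related to the mammalian ATF and CREB proteins, in fly embryos. The 10 genes were listed by name and found in the Ensembl gene annotation, out of 13945 protein-coding genes on 6 chromosome arms. Each was given every peak call whose summit lay within the gene or 2 kb either side. The genes were Hsc70-4, Hsp83, DnaJ-1, Hsf and stv, grouped as constitutive, and Hsp22, Hsp23, Hsp26, Hsp27 and Hsp68, grouped as inducible.

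Binding was profiled by chromatin immunoprecipitation and sequencing (ChIP-seq) in whole Drosophila melanogaster embryos aged 0 to 24 h, both sexes together, in 3 biological replicates of 1 group. The embryos came from 1 transgenic line, A3-3-GFP, that carries Atf3 with green fluorescent protein at its C-terminus, and the immunoprecipitation used an antibody against the tag (the antibody field of the labels names Atf3). The labels name no heat treatment and no second group, so binding could not be compared between stressed and unstressed embryos. Whole embryos of this age range hold many cell types and stages, which the lists do not separate, and whether the line keeps its own untagged Atf3 is not given in the sources used here.

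Chaperones bind unfolded or partly folded proteins and help them fold, assemble or be degraded. In flies, heat causes the transcription factor Hsf to form trimers that bind heat shock elements, runs of alternately inverted GAA units, in front of the heat shock genes. The cognate genes work without stress: Hsc70-4 encodes a cognate Hsp70, and Hsp83 the cytosolic Hsp90, which heat raises further. DnaJ-1, a J protein that stimulates Hsp70, and stv, a BAG domain cofactor of Hsp70, are expressed without stress and are also induced by heat. The small heat shock proteins Hsp22, Hsp23, Hsp26 and Hsp27 hold unfolded proteins in a soluble state, and several of their genes are also expressed during normal development. Hsp68 is an Hsp70 family gene induced by heat.

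The lists compared are of 3 kinds: the 30000 calls of each replicate, the 27754 calls of the replicates pooled, and the 2896 calls of a list thresholded by the irreproducible discovery rate (IDR). The IDR measures how well ranks repeat between replicates. The IDR list was identical to the first 2896 pooled calls by signal. A call in it is thus a high pooled call and need not repeat in each replicate: 2747 were matched in all 3. The signal is the authors' own value of peak strength and was used only to rank calls within a list, with rank 1 the highest. Without read totals, the depth behind each rank is unknown.

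The sequences below show the DNA under the calls at start sites and, for contrast, the DNA upstream of Hsp68 and Hsp23, where no IDR call lay. They are from release 6 of the genome (dm6, as held by NCBI RefSeq) and are written 5′ to 3′ on the strand of the gene. Capitals mark matches to a heat shock element of 2 units, GAANNTTC or TTCNNGAA, and to TATCGATA, the DNA replication-related element. The first 3 are the 151 bases centred on the IDR summits at Hsp26 (chr3L:9377518-9377668, minus strand), Hsp27 (chr3L:9383866-9384016, plus strand) and Hsc70-4 (chr3R:15242433-15242583, plus strand).
Hsp26: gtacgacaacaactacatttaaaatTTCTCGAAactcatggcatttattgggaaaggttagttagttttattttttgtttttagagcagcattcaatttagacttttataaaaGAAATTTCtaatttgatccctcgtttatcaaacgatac
Hsp27: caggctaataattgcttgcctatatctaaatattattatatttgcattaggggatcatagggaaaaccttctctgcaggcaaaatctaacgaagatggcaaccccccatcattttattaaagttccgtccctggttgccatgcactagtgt
Hsc70-4: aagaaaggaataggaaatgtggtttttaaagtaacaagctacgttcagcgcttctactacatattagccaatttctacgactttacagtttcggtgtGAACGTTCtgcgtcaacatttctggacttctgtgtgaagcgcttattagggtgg

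The IDR summit at Hsp83 lies in annotated 5' UTR, so only 30 bases around its heat shock element are given (chr3L:3193137-3193166, plus strand). The pooled call at DnaJ-1 is shown by the 151 bases at its summit (chr3L:5752239-5752389, minus strand). The stretches from 190 to 40 bases before the start sites of Hsp68 (chr3R:24057350-24057500, minus strand) and Hsp23 (chr3L:9381692-9381842, plus strand) hold heat shock elements without an IDR call.
Hsp83 element: agaagcctctaGAAGTTTCtagagacttcc
DnaJ-1: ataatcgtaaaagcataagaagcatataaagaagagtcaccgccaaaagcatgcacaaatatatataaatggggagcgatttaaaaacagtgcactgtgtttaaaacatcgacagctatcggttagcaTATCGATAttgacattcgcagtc
Hsp68 upstream: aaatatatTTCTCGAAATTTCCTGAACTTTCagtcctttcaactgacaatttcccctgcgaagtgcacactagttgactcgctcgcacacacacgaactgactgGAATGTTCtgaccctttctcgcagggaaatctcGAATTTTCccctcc
Hsp23 upstream: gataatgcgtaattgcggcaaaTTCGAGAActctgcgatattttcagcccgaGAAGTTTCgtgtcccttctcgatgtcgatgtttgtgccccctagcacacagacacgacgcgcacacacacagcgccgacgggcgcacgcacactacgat

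IDR calls were found at 6 of the 10 genes, against 25.8% of all protein-coding genes under the same rule. The 6 were the constitutive Hsc70-4, Hsp83 and stv and the inducible Hsp23, Hsp26 and Hsp27. Within 500 bp of a start site there were IDR calls at 4 of the 10, Hsc70-4, Hsp83, Hsp26 and Hsp27, against 14.2% of all genes. Inside the gene alone the count was 1, Hsp83, against 8.48% of all genes, so the other 5 rest on calls outside the gene. With each call counted only for the gene with the nearest start site it was 5, against 14.3%. Counted once each, the IDR calls at these genes numbered 6, with 4 at constitutive and 2 at inducible genes, because Hsp23 and Hsp27 share 1 call. The gene windows were of usual size: their median was 6196 bp, against 6166 bp for all genes.

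In the lists that include background calls, a call near a gene was common. The pooled list had a call at 10 of the 10 genes, against 81.8% of all genes. Replicate 1 had one at 10 (82.0% of all genes), replicate 2 at 9 (84.8%) and replicate 3 at 10 (83.4%), and the gene without a call in replicate 2 was Hsf. Among the first 2896 calls of each replicate, there was a call at 5 of the 10 genes in replicate 1 (25.0% of all genes), at 7 in replicate 2 (26.7%) and at 6 in replicate 3 (24.8%). Hsc70-4, Hsp83, Hsp23, Hsp26 and Hsp27 were in all 3 of these sets, stv in replicates 2 and 3, and DnaJ-1 in replicate 2.

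The median of the best ranks of the 10 genes was 1475 in the pooled list, and 2476, 1716.5 and 1231.5 in replicates 1, 2 and 3. Over all protein-coding genes it was 8635 in the pooled list, and 8912, 8302 and 8819 in the replicates. A gene with no call was ranked 1 below the end of the list in these medians.

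**Figure D1:**
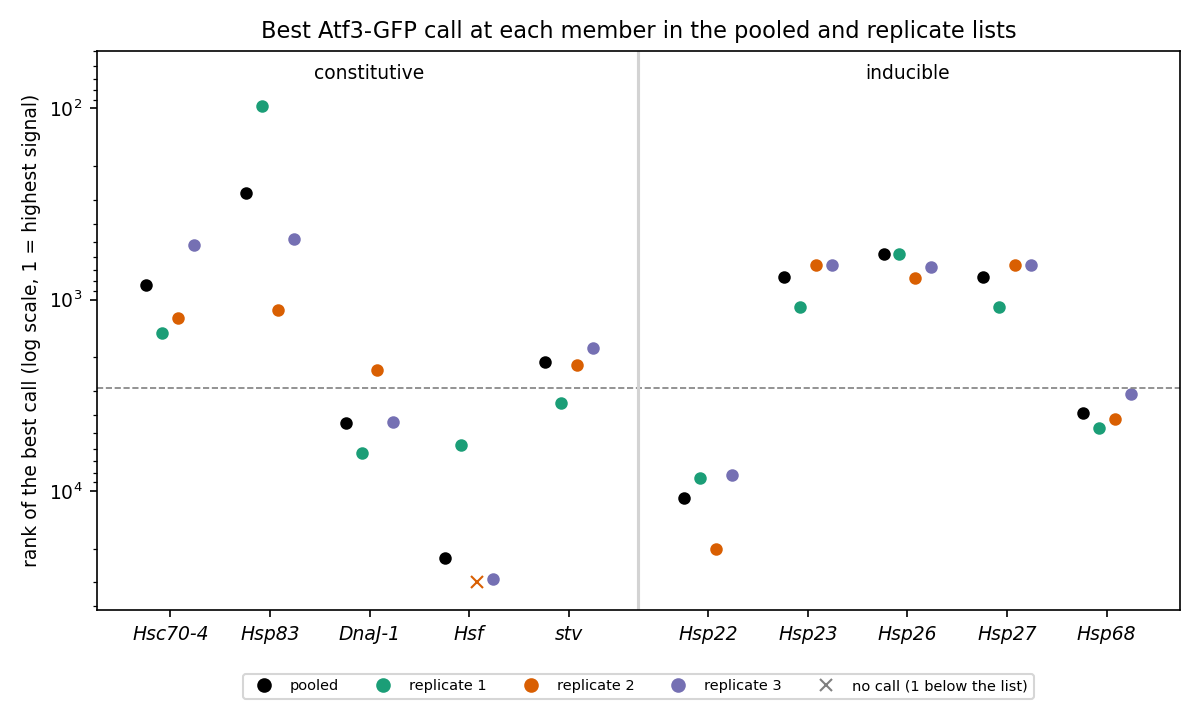
Rank of the best call at each gene (y axis, log scale, 1 = highest signal) in the pooled list and in replicates 1 to 3, with constitutive genes on the left and inducible genes on the right; the dashed line marks rank 2896, the size of the IDR list. Hsp26, Hsp27 and Hsp23 lie at ranks 575 to 1091 in all 4 lists, while at Hsp83 the replicates run from rank 97 to 1137 and at Hsf from rank 5721 to no call.

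The highest-signal call at any of the 10 genes lay at Hsp83 (FBgn0001233; 3L, start 3192969, end 3197059, plus strand). It spanned 3193021 to 3193224 with its summit at 3193098, between the gene's annotated start sites, 118 bp before the second. Its signal was 287 and its rank 276 in the IDR and pooled lists. It ranked 97 in replicate 1, 1255 in replicate 2 and 481 in replicate 3, a mean of 611 ± 590 (SD, n = 3). The SD is close to the mean: replicate 1 placed this call far ahead of replicate 2, and without replicate 2 the mean was 289. The highest rank number was 12.9 times the lowest, a ratio larger than in 96.0% of the 2747 IDR calls matched in all 3 replicates, whose median ratio was 2.35.

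A second IDR call lay in an intron of Hsp83, 1095 bp after the second start site, from 3194111 to 3194510. Its signal was 81.7 and its rank 2796 of 2896, close to the end of the IDR list. It ranked 18298 in replicate 1, 1137 in replicate 2 and 2141 in replicate 3, a mean of 7192 ± 9631 (SD, n = 3), and 1639 without replicate 1. The order of the 2 calls at Hsp83 thus differed: the start site call ranked ahead in replicates 1 and 3, and the intron call ranked ahead in replicate 2 by 1137 to 1255. The 2 calls differ in opposite ways between replicates 1 and 2, so the replicate values at Hsp83 do not follow 1 common shift.

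The genes whose best ranks in the 3 replicates were most like those of Hsp83 (97, 1137 and 481) were CG14965, Grx5 and CG32590, by Euclidean distance of log10 ranks over the 3 replicates. CG14965 is the neighbour upstream of Hsp83 and had the same best calls, at distance 0. Grx5, which encodes a glutaredoxin, and CG32590 both had ranks 121, 873 and 676, at distance 0.21. No signals were tied in replicate 1, so Grx5 and CG32590 share their best call there and are not separate cases.

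At Hsc70-4 (FBgn0266599; 3R, start 15242687, end 15246614, plus strand) the IDR call spanned 15242308 to 15242707, with its summit 179 bp before the first of 6 annotated start sites. Its signal was 166 and its rank 836. It ranked 1493 in replicate 1, 1243 in replicate 2 and 516 in replicate 3, a mean of 1084 ± 508 (SD, n = 3), with summits from 2 bp before to 23 bp after the pooled summit. The 3 replicates thus placed the call at the same position, with replicate 3 ahead of the other two. The other 4 pooled calls at the gene ranked 8348 or lower and lay in introns and coding sequence, of which 1 was in the neighbour Amt.

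At stv (FBgn0086708; 3L, start 13477541, end 13483515, plus strand) the IDR call lay farther out, 638 bp before the first start site, from 13476703 to 13477102, with a signal of 98.4 and rank 2114. It ranked 3697, 2190 and 1788 in replicates 1, 2 and 3, a mean of 2558 ± 1006 (SD, n = 3). Its match in replicate 3 had its summit 189 bp nearer the gene, closer to another pooled call 430 bp before the start site that ranked 3056. In replicate 2 both positions were called, at ranks 2190 and 2466. In replicate 1 the best call was a different one, ranked 3459, 91 bp after an internal start site. The pooled list had 6 calls at stv, the most of any of the 10 genes.

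DnaJ-1 (FBgn0263106; 3L, start 5750029, end 5752189, minus strand) had no IDR call. Its best pooled call, with a signal of 60.7 and rank 4385, had its summit 125 bp before the start site. The best call of the gene ranked 6325 in replicate 1, 2334 in replicate 2 and 4352 in replicate 3. These were 3 different positions: 119 bp after, 143 bp before and 726 bp after the start site. A call 143 to 146 bp before the start site was in all 3 replicate lists, at ranks 29140, 2334 and 8346.

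Hsf (FBgn0001222; 2R, start 18130303, end 18134634, minus strand), the gene of the heat shock transcription factor itself, had no IDR call, and its only pooled call was the lowest placed of the best calls of the 10 genes. That call ranked 22503, with a signal of 27.0 against a lowest pooled signal of 24.4. It lay 602 bp beyond the gene, in coding sequence of its neighbour Dlip3. In replicate 1 a call 14 bp before the Hsf start site ranked 5721, replicate 2 had no call in the window, and the single call of replicate 3 ranked 28845 and also lay in Dlip3. No call at the Hsf start site was thus found in more than 1 replicate.

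**Figure D2:**
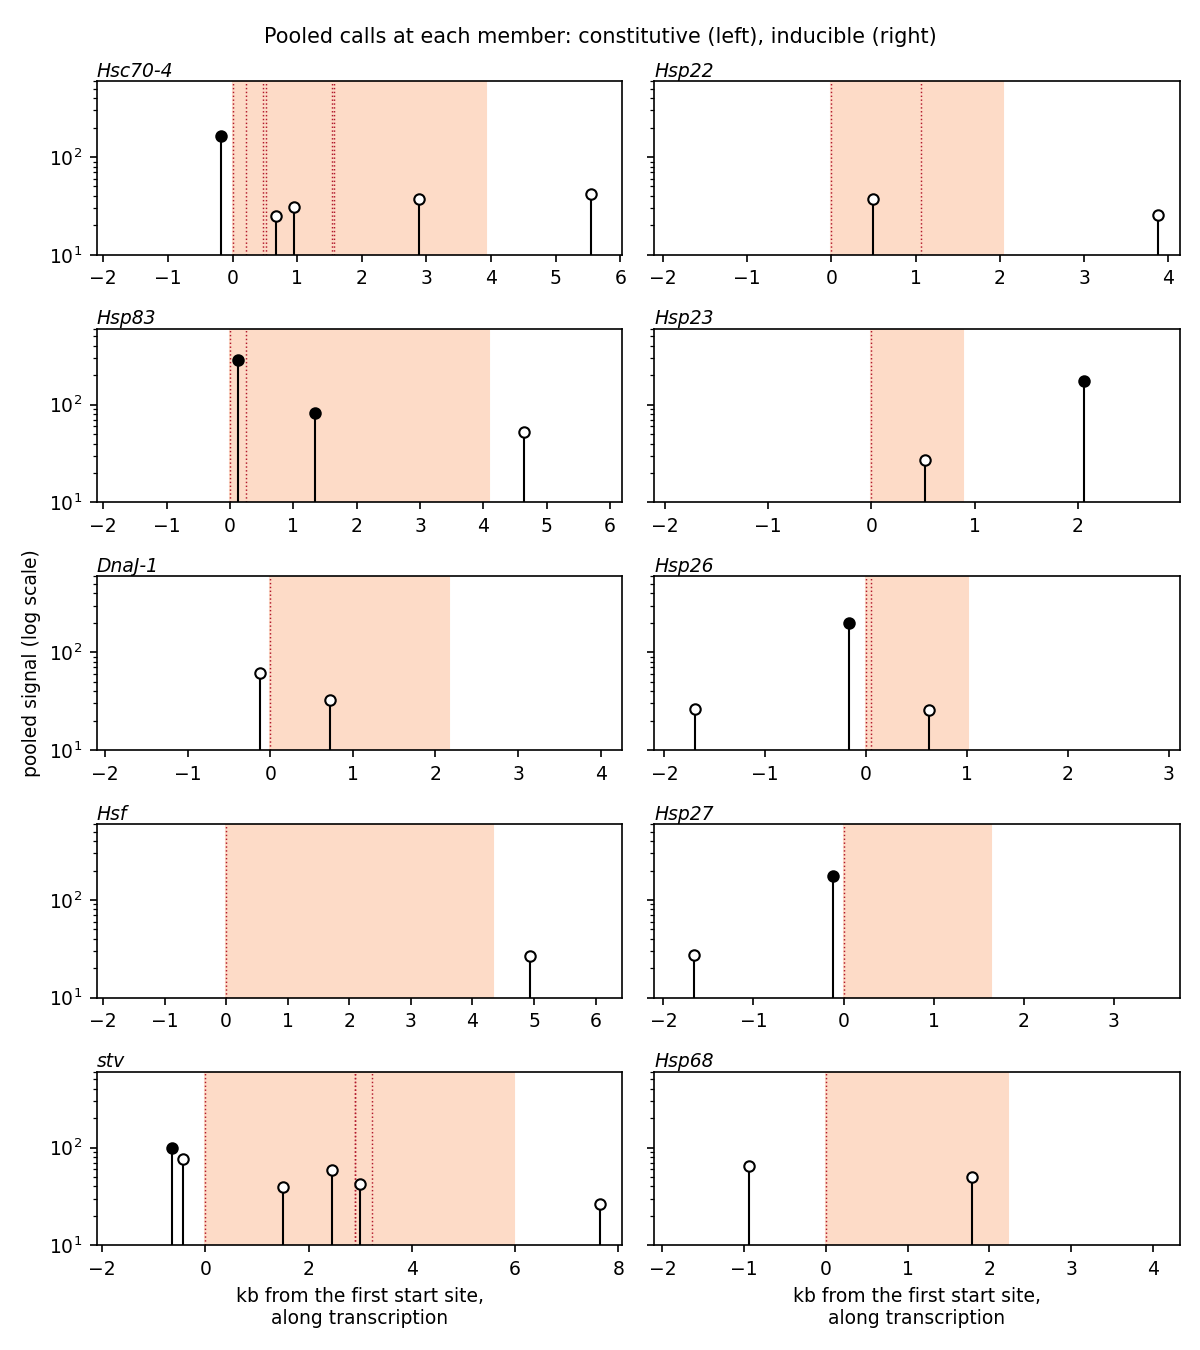
Pooled calls at each gene: the x axis is the distance of the summit from the first start site along the direction of transcription (kb) and the y axis is the pooled signal (log scale). Shading marks the gene, dotted lines its annotated start sites, filled points calls in the IDR list and open points other pooled calls. At Hsc70-4, Hsp26 and Hsp27 the filled point sits just before the gene, at 179, 166 and 122 bp, while the call counted for Hsp23 lies past its end.

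Among the inducible genes, the small heat shock genes Hsp22, Hsp23, Hsp26 and Hsp27 lie in 1 cluster at 67B on 3L. From Hsp67Bc to Hsp27 the cluster spans 14.2 kb and holds 8 protein-coding genes, all 8 listed here as small heat shock genes. The listing was by name, with CG4456 listed as Hsp67Bb, and the protein class was not checked. It held 6 pooled calls, of which 2 were IDR calls, 6348 bp apart and placed before Hsp26 and Hsp27. In each of the 3 replicates 2 calls in the cluster were among the first 2896, and these were the same pair. The next best call in the cluster ranked 10874 in the pooled list and 8523, 9519 and 8199 in replicates 1, 2 and 3. The pair thus stood well ahead of the other calls in each list, and no IDR call lay before Hsp22 or Hsp23.

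At Hsp26 (FBgn0001225; 3L, start 9376418, end 9377427, minus strand) the IDR call spanned 9377393 to 9377792, with its summit 166 bp before the first start site. Its signal was 201 and its rank 578. It ranked 575, 767 and 675 in replicates 1, 2 and 3, a mean of 672 ± 96.0 (SD, n = 3), and the replicate summits lay within 25 bp of the pooled summit. The highest rank number was 1.33 times the lowest, and 7.64% of the matched IDR calls had a smaller ratio.

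At Hsp27 (FBgn0001226; 3L, start 9384063, end 9385694, plus strand) the IDR call spanned 9383741 to 9384140, with its summit 122 bp before the start site. Its signal was 175 and its rank 765. It ranked 1091, 661 and 658 in replicates 1, 2 and 3, a mean of 803 ± 249 (SD, n = 3), with summits within 17 bp of the pooled summit. The same call was counted for Hsp23 (FBgn0001224; 3L, start 9381882, end 9382765, plus strand), since it lies 1176 bp beyond that gene's end. The start site nearest to it is that of Hsp27. The only other pooled call at Hsp23, in its own coding sequence, ranked 21893 with a signal of 27.3.

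Hsp22 (FBgn0001223; 3L, start 9372931, end 9374964, plus strand) had no IDR call. Its best pooled call ranked 10874 with a signal of 37.0 and lay in annotated 5' UTR, 499 bp after the first of its start sites, where the Hsp22 and CG4456 genes overlap. The best calls of the gene ranked 8523, 20180 and 8199 in replicates 1, 2 and 3. The replicate 2 call lay beyond the end of Hsp22 and was nearest the start site of Hsp26, so replicate 2 had no call at the position of the pooled one.

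**Figure D3:**
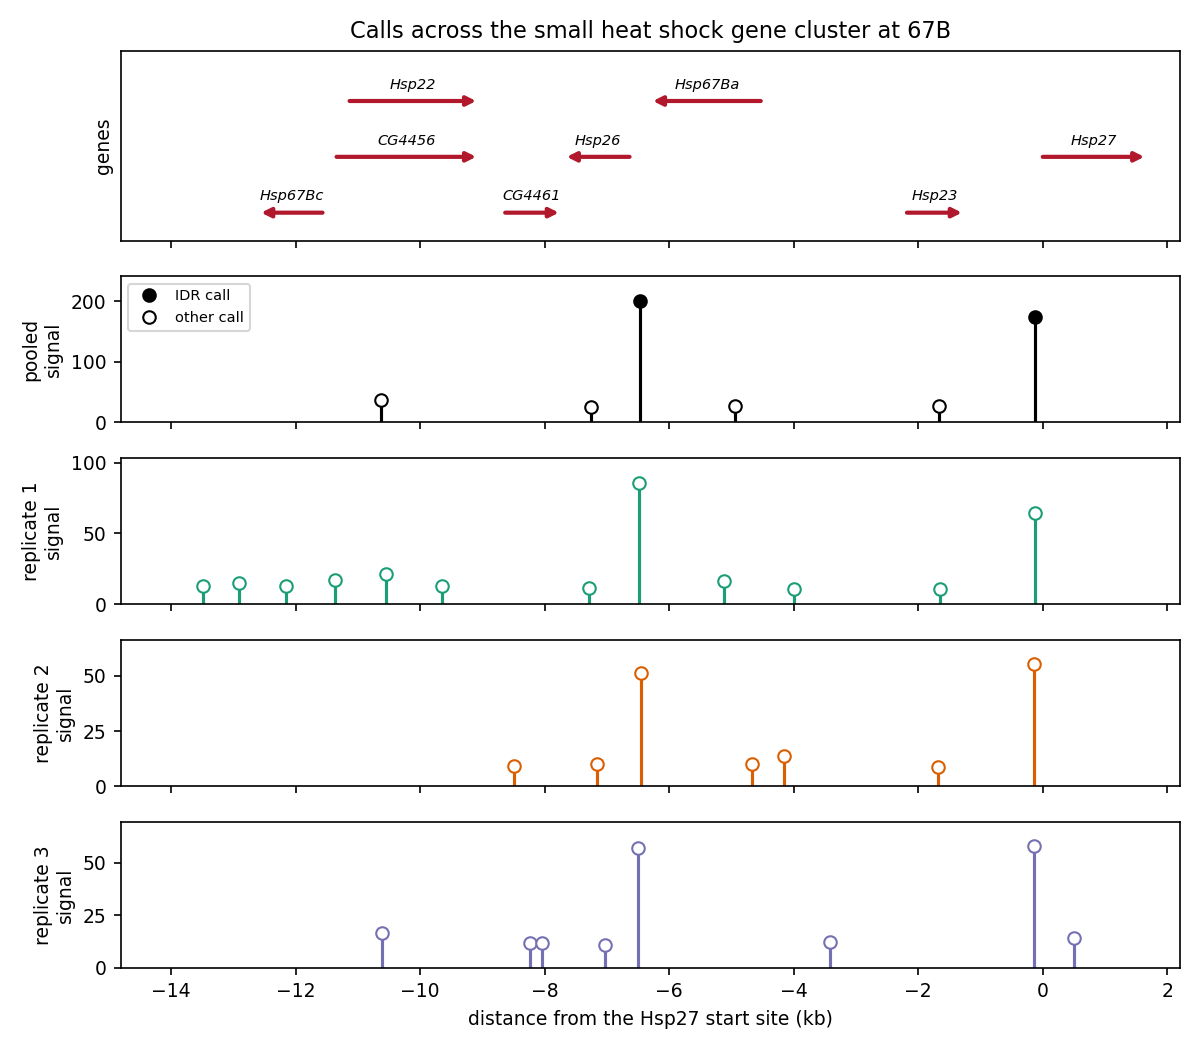
Calls across the 67B cluster: arrows give the protein-coding genes in their direction of transcription. The lower panels give the signal of each call in the pooled list and in replicates 1 to 3. The x axis is the distance from the Hsp27 start site (kb), and IDR calls are filled in the pooled panel. Signal scales differ between panels because signals can be compared only within a list; the 2 tall calls, before Hsp26 and Hsp27, appear in all 4 panels.

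Hsp68 (FBgn0001230; 3R, start 24055080, end 24057310, minus strand), away from the cluster, had no IDR call. Its best pooled call ranked 3930 with a signal of 65.0 and lay 943 bp before the Hsp68 start site but 34 bp from that of SMC1, a cohesin subunit gene. Its other pooled call, ranked 6003, was in the coding sequence. The best call of the gene was at a different place in each replicate: 986 bp before the start site at rank 4694 in replicate 1, beyond the end of the gene at rank 4196 in replicate 2, and in coding sequence at rank 3121 in replicate 3. A call 33 bp before the start site was present in replicate 1, at rank 6423.

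The constitutive and inducible genes were compared by the median best rank of the 5 genes of each class. In the pooled list the medians were 2114 for constitutive and 765 for inducible genes. In replicate 1 they were 3459 and 1091, in replicate 2 they were 2190 and 767, and in replicate 3 they were 1788 and 675. The windows searched were longer for constitutive genes, with a median of 8091 bp against 5632 bp. The inducible median was ahead in 3 of 3 replicates, and both classes were ahead of the median of all genes. The difference of log10 medians, constitutive minus inducible, was 0.501, 0.456 and 0.423, a mean of 0.460 ± 0.0392 (SD, n = 3). The two-sided exact sign-flip permutation test over the replicates gave p = 0.25, the smallest p that 3 replicates allow and one that cannot reach significance.

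The order of the classes turned with the rule that ties calls to genes. When each call was counted only for the gene with the nearest start site, Hsp23 lost the call it shares with Hsp27, Hsp68 lost its best call in each replicate to SMC1 or CG6000, and Hsp22 lost its call in replicate 2. The difference became -0.685, with inducible medians of 6423, 29287 and 8199 in replicates 1, 2 and 3 and unchanged constitutive medians. With flanks of 1 kb it was -0.375, within 500 bp of a start site -0.868, and with stv and DnaJ-1 moved to the inducible genes -0.384. With the 4 genes of the 67B cluster taken as 1 unit by their best call it was 0.179. The inducible class then held only that unit and Hsp68, against 5 constitutive genes. Neither class was ahead under all of these rules, and the count of genes with an IDR call was 3 in each class.

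**Figure D4:**
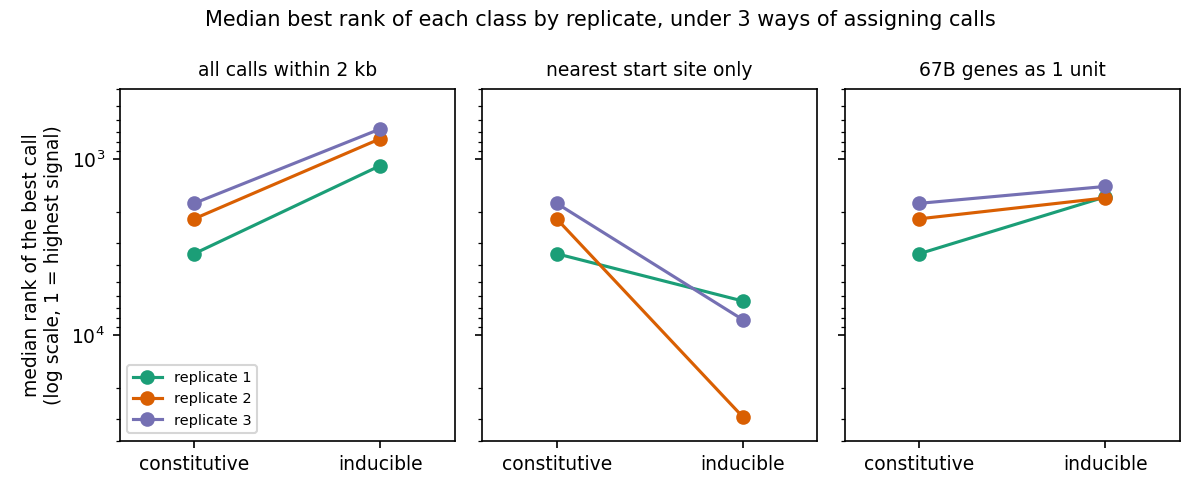
Median rank of the best call (y axis, log scale, 1 = highest signal) of the 5 constitutive and the 5 inducible genes in replicates 1 to 3. A line joins the classes for each replicate, under 3 ways of tying calls to genes. With the 67B genes as 1 unit the inducible class is that unit and Hsp68. The lines rise toward the inducible genes with all calls within 2 kb, fall with calls counted only for the nearest start site, and are flatter with the 4 genes at 67B as 1 unit.

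Repeatability differed between the IDR calls. Of the 6, 4 were among the first 2896 in all 3 replicates: those at the start sites of Hsp83, Hsp26, Hsp27 and Hsc70-4. Over the whole IDR list this held for 53.0% of calls. The remaining 2, at stv and in the Hsp83 intron, were among the first 2896 in replicates 2 and 3. The ratio of highest to lowest rank was 1.33 at Hsp26, 1.66 at Hsp27, 2.07 at stv, 2.89 at Hsc70-4, and 12.9 and 16.1 at the calls of Hsp83. At stv the replicate 3 match had its summit 189 bp from the pooled summit, nearer another pooled call, so its ranks may not be those of 1 site.

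Matches to short motifs were counted on both strands in the 201 bp at each summit. A heat shock element of 2 units was in 3 of the 6 IDR calls, at Hsc70-4, Hsp83 and Hsp26, against 10.7% of all IDR calls and 8.86% of pooled calls. The match nearest the summit was centred 25.5 bp from it at Hsc70-4, 41.5 bp at Hsp26 (which had 2 matches) and 53.5 bp at Hsp83, and the Hsp27 call had none. The form with 3 units in alternate directions was in 0 of the 6, and in 0.242% of IDR calls. In a window of 50 bp either side 2 calls held the 2-unit form, against 5.39% of IDR calls, and in 200 bp either side 5 did, against 18.4%. The 2-unit form also lay before start sites at 6 of the 10 genes, against 16.9% of all genes. The shares over all IDR calls therefore cannot separate the calls from the genes they lie at.

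Other motifs were counted in the same windows. The cAMP response element TGACGTCA, a site for ATF and CREB factors, was in 0 of the 6 calls and in 1.52% of IDR calls, and its short form TGACGT was in 0 and in 6.04%. The AP-1 site TGANTCA was in 0 of the 6, against 5.46%. GAGAG, a site of the GAGA factor Trl, was in 0 of the 6, against 24.6%, although Hsp26 has 6 overlapping or spaced matches between the summit and the gene, at positions -120 to -83 from its second start site. TATAAA was in 3, at Hsp83, Hsp27 and Hsp26, against 29.6%. These counts moved with the window: TATAAA was in 1 call with 50 bp either side (17.1% of IDR calls) and in 5 with 200 bp (46.5%). With 200 bp either side GAGAG was in 2 calls, at Hsp26 and Hsp27 (45.6%), and TGACGT in 1, at Hsp26 (12.1%). TATCGATA was in 0, against 4.39%, and the DnaJ-1 call, outside the IDR list, held 1 match centred 56.5 bp from its summit.

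The 250 bp before each annotated start site, internal ones included, were searched as well. The 2-unit element was present there at 6 of the 10 genes, against 16.9% of all genes. The 6 were Hsc70-4, Hsp83, Hsp22, Hsp23, Hsp26 and Hsp68. At Hsp83 and Hsp22 all matches lay inside the gene, before the second start site. The 3-unit form was present at Hsc70-4 and Hsp68, against 0.473% of all genes. At Hsc70-4 it lay inside the gene, after the first start site and before internal ones. Hsp68 had 6 overlapping or separate 2-unit matches in the stretch printed above and no IDR call there, and Hsp22 and Hsp23 had 2 matches each and no IDR call before their own start sites. Hsp27 had no strict match in this window and had an IDR call. The motif before a start site and an IDR call within 500 bp of a start site thus did not go together at 4 of the 10 genes.

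Of the other chaperone genes, 51 were matched by name, and 16 of them (31.4%) had an IDR call within the gene or 2 kb, against 25.8% of all genes. Within 500 bp of a start site it was 8 (15.7%), against 14.2%. Both shares are near those of all genes. Counted only for the nearest start site, the IDR calls left 7 of the 51, against 14.3% of all genes. The median best rank of the 51 was 6451 in the pooled list and 5173, 6963 and 8199 in replicates 1, 2 and 3.

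J proteins, which bring substrates to Hsp70, had IDR calls at 4 of 8 genes, against 25.8% of all genes. Counted only for the nearest start site, mrj and P58IPK kept one, against 14.3% of all genes. The call at mrj, 297 bp from a start site, had a signal of 487 and ranked 77, 64 and 101 in replicates 1, 2 and 3, ahead of every call at the 10 genes in the pooled list. The call counted for CG5504 lay 2782 bp from its start site and was nearest to that of Alg3. The call at DnaJ-H lay in an intron of DnaJ-H, 425 bp from its own start site, though that of Sirt1 was nearer. Of the 2 IDR calls at P58IPK, the higher was nearest to CG8312 and the other lay within 500 bp of its own start site. Of the Hsp90 family and its cofactors 4 of 6 had IDR calls, against 25.8% of all genes. Only Gp93 of these kept one when calls were counted for the nearest start site. At Gp93, the Hsp90 of the endoplasmic reticulum, the call lay 88 bp before the start site at pooled rank 2627. The best calls of Stip1, Cdc37 and Trap1 were nearest to other genes: Pi3K21B for Stip1, alpha-Spec and dlt for Cdc37, and Vha16-1 for Trap1.

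Chaperonins, the ring-shaped folding machines, and their cofactors had IDR calls at 4 of 13 genes, against 25.8% of all genes. CCT7 had one 72 bp before its start site at pooled rank 743, ranked 455, 743 and 2769 in replicates 1, 2 and 3, and CG11267 had one 113 bp before its start site at pooled rank 1380. Those counted for CCT3 and CCT8 were nearest to CG10324 and CG30349, but lay 521 and 477 bp from the start sites of CCT3 and CCT8. Of the 8 other genes listed by name as small heat shock genes, 3 had an IDR call, against 25.8% of all genes. For Hsp67Ba and CG4461 this was the call before Hsp26. The third was CG14207, with a call at pooled rank 1987 in an intron. None of the 5 Hsp70 cofactor genes had an IDR call, against 25.8% of all genes. The best placed were Sgt and Roe1 at pooled ranks 3662 and 9503.

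Of the other Hsp70 genes 1 of 11 had an IDR call, against 25.8% of all genes. It was the mitochondrial Hsc70-5, at rank 1477, 25 bp after its start site. The 6 heat-induced genes Hsp70Aa, Hsp70Ab, Hsp70Ba, Hsp70Bb, Hsp70Bbb and Hsp70Bc had no pooled call by summit. When any overlap of a call with the window was counted, Hsp70Ab had an IDR call. In the replicates, calls were found at 2 of them in replicate 1, at 0 in replicate 2 and at 2 in replicate 3, the best at rank 10020. These 6 are near-identical copies, so reads may not have been placed on 1 of them alone, and the part of this in the missing calls was not tested.

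**Figure D5:**
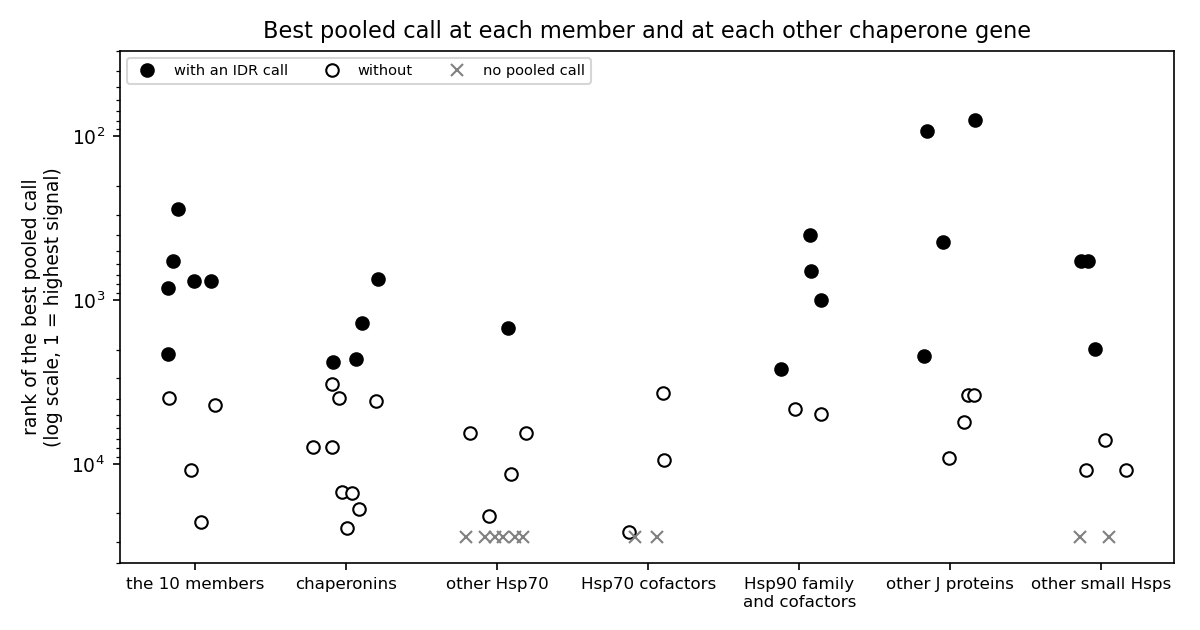
Rank of the best pooled call (y axis, log scale, 1 = highest signal) at each of the 10 genes and of the 51 other chaperone genes by family; filled points are genes with an IDR call, open points genes without, and crosses genes with no pooled call, drawn below the list. Points are spread sideways for clarity only. The 2 best placed calls, at ranks 79 and 93, are those counted for the J protein genes mrj and CG5504. The call at rank 93 is nearest to the start site of Alg3. Of the 11 other Hsp70 genes, 6 are crosses.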

How the data were processed

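Peak lists on dm6 were used: 1 for each of 3 biological replicates, 1 for the replicates pooled and 1 kept at an IDR threshold. Per the labels, replicate chromatin was sheared to 200 to 800 bp. The deposited signal of each call is the authors' value, relative to 1 control file shared by the lists; neither aligner, caller nor IDR cutoff is given in the sources used here. No read totals were given, so depth and its precision are unknown.

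Genes and start sites came from Ensembl release 115, whose arm lengths fit the dm6 calls, and sequence from RefSeq release 6. The 10 genes, the other chaperone list (53 symbols, 46 matched directly, 5 by a RefSeq synonym, 2 unmatched) and the tests were chosen with earlier results of these data known. The constitutive and inducible classes came from background knowledge. Every gene of the 10 is described; of other chaperones, those with an IDR call (up to 4 per family by pooled signal), or up to 2 where a family had none. Calls were matched between lists at an overlap of 50% of the shorter interval. No adjusted p-value was computed, since genes are not replicates; the 3 replicates were tested by exact sign-flip permutation. Alternatives covered the gene window, the assignment of calls, the classes, the peak set, the motif window and each replicate left out. Counting, matching and motif steps were tested on simulated data. Scripts ran in Python 3.11.15 with pandas 2.3.3, numpy 2.4.6, matplotlib 3.10.9 and scipy 1.17.1.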

Additional observations from a re-analysis of the deposited data

How the results depend on the processing

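With summits counted only inside the gene, IDR calls were found at 1 of the 10 genes (1 constitutive, 0 inducible) and at 4 of the 51 other chaperone genes, against 8.48% of all genes. The other chaperone count was 8 within 500 bp of a start site and 7 for the nearest start site only. It was 9 for IDR calls also among the first 2896 of all 3 replicates, and 10 to 11 with 1 replicate left out of that filter. These sets are stricter cuts of the same IDR list. They hold 1535 calls for all 3 replicates, and 1910, 1815 and 1773 without replicates 1, 2 and 3. Their shares of all genes were not computed. The constitutive minus inducible difference of log10 median ranks (0.460) turned to -0.375 with 1 kb flanks, -0.353 inside the gene only, -0.868 within 500 bp of a start site, -0.685 for the nearest start site only and -0.384 with stv and DnaJ-1 as inducible. It was 0.439 to 0.478 with 1 replicate left out and 0.105 with means of log10 ranks. The replicates differed in sign under 2 of these rules. The difference was above 0 in 2 of 3 replicates with means of log10 ranks and in 1 of 3 inside the gene only. For the nearest start site only, Hsp23 and Hsp68 lose their best calls in all 3 replicates and Hsp22 loses its call in replicate 2; the share of each in the change, and the cause of the others, was not tested. With 1 replicate left out of the same filter on the IDR list, the 10 genes had IDR calls at 5 to 6. No IDR list was remade without a replicate. The lists give no depth, so absence of a call is not absence of binding. No paired analysis was possible because the 3 replicates form 1 group.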
